A study of Mus musculus with 6 samples.

Results

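Genes of the splicing machinery were followed in mouse colorectal tumor organoids given Folfiri chemotherapy. The set held the protein-coding genes whose GENCODE symbols name an SR protein (Srsf followed by a number), an hnRNP protein (Hnrnp), a subunit of SF3a or SF3b (Sf3a or Sf3b followed by a number) or an Sm or snRNP protein (Snrp). Of the 24190 genes with counts, 52 met this rule, namely 11 SR proteins, 20 hnRNP proteins, 9 SF3 subunits and 12 Sm and snRNP proteins, and 5 pseudogenes with such symbols were left out. Expression was high enough for testing in 51 of the 52. Srsf12, a repressive SR protein, was below the expression filter, with 2, 4 and 3 reads in the control samples and 7, 17 and 7 in the Folfiri samples. In edgeR without the filter it was called higher (log2 fold change 1.35, adjusted p = 0.048), and DESeq2's Wald test did not call it (1.38, adjusted p = 0.14).

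The organoids were MTO54, one mouse tumor organoid line of the AKP genotype, so all values describe a single line in culture. Organoids were broken into single cells, seeded in basement membrane extract in complete stem cell medium, and after 2 days given either fresh medium (3 control samples) or Folfiri (3 samples), made of 5FU at 50 μg/μl, as the labels write it, and SN38 at 100 nM. The labels give 2 days of treatment, and the legend for these samples in the paper gives a longer one. 5FU disturbs thymidylate synthesis and is built into RNA, and SN38, the active form of irinotecan, traps topoisomerase I on DNA. Between 22103591 and 30098210 reads per sample were counted on genes. Control replicate 1 stood apart from the other controls, with a chi-square per degree of freedom over genes of 23.7 and 22.4 against them and 3.84 between replicates 2 and 3, and Folfiri replicate 3 stood apart less far (12.3 and 11.9, against 3.55). Without control replicate 1, 25 members rose and 17 fell, and without Folfiri replicate 3, 24 and 14, beside 26 and 15 with all samples.

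An intron is removed by the spliceosome, which is put together on each pre-mRNA from small nuclear ribonucleoproteins (snRNPs). U1 snRNP recognizes the 5′ splice site, and U2 snRNP, which carries SF3a and SF3b, settles on the branch site. The Sm proteins form the ring around the RNA of U1, U2, U4 and U5. SR proteins bind exons and help recruit these particles, whereas hnRNP proteins coat the pre-mRNA and often act against the SR proteins at the same sites. SR proteins work through phosphorylation of their arginine-serine domain by SRPK and CLK kinases, and topoisomerase I, the target of SN38, can also phosphorylate them. The counts report RNA only, not phosphorylation or splicing.

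The 4 classes did not move together after Folfiri. Among the 51 tested genes, 26 rose and 15 fell (51.0% and 29.4%), and 10 did not pass the test. Of all 14692 tested genes, 40.3% rose and 38.8% fell, so the share that rose was above the background and the share that fell below it. Sm and snRNP genes rose in 11 of 12 cases and fell in none, and SF3 genes rose in 6 of 9 and fell in 1. The hnRNP genes went mostly the other way, with 5 higher and 11 lower of 20, and the 10 tested SR genes were split, with 4 higher and 3 lower. Calls are from edgeR's quasi-likelihood test at an adjusted p of 0.05 over all tested genes, and the p-values measure the spread between these 6 samples. In bulk RNA, fewer cells of a type and less RNA per cell cannot be told apart.

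The sizes of change were moderate. The median log2 fold change, Folfiri over control, was 0.24 over the members and 0.02 over all tested genes, and by class it was 0.11 for SR, −0.35 for hnRNP, 0.76 for SF3 and 0.51 for Sm and snRNP genes. All these medians were higher when library totals alone set the scale, and that of the hnRNP genes was then just below 0. A called change of at least 1 on the log2 scale was seen in 8 members (15.7%), against 36.3% of all tested genes. Control and Folfiri values, in CPM (counts scaled to the library total and TMM factor), did not overlap in 43 members (84.3%), against 81.4% of all tested genes. Members given below with values in every sample were mostly chosen for a called change and separate groups, so their separation is no further result. The members were deeply counted, with a median of 156 CPM against 22.4 CPM for all tested genes.

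Some properties of the libraries moved with treatment. TMM factors, which set the scale between libraries, were 0.880 to 0.966 in control and 1.10 to 1.11 after Folfiri. When library totals alone set the scale, all tested genes had a median of 0.30 rather than 0.02, and 49.8% of them were higher and 28.9% lower, so that the higher genes made up 63.3% rather than 51.0% of those called. The members were then 34 higher and 12 lower, with SR genes 7 and 1, hnRNP genes 8 and 10, SF3 genes 8 and 1, and Sm and snRNP genes 11 and 0. Mitochondrially encoded genes took 2.09% to 2.36% of counts in control and 3.95% to 4.44% after Folfiri. Of 8 intestinal epithelium markers, 5 fell and 1 rose, with sums of 5976 to 6945 CPM in control and 4817 to 4991 CPM after Folfiri. Of 8 immune markers, 7 had counts and 2 were tested, of which Ptprc rose, with sums of 21.4 to 26.2 CPM and 21.6 to 22.6 CPM, while Lyz2 and Tyrobp never passed 2 reads. Of 8 fibroblast and endothelial markers, 5 were tested, 2 rose and 1 fell, with sums of 73.6 to 126 CPM and 67.4 to 78.3 CPM, nearly all of it Cdh5, which was not called. The genes that rose were Dcn, with 2, 0 and 0 reads in control and 19, 26 and 20 after Folfiri, and Pdgfra (log2 fold change 1.54), and Col1a1 fell (−1.47). Col3a1 and Pdgfrb were at 0 reads in all control samples and never passed 2 after Folfiri. The part of these shifts in the results on splicing genes was not tested.

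**Figure D1:**
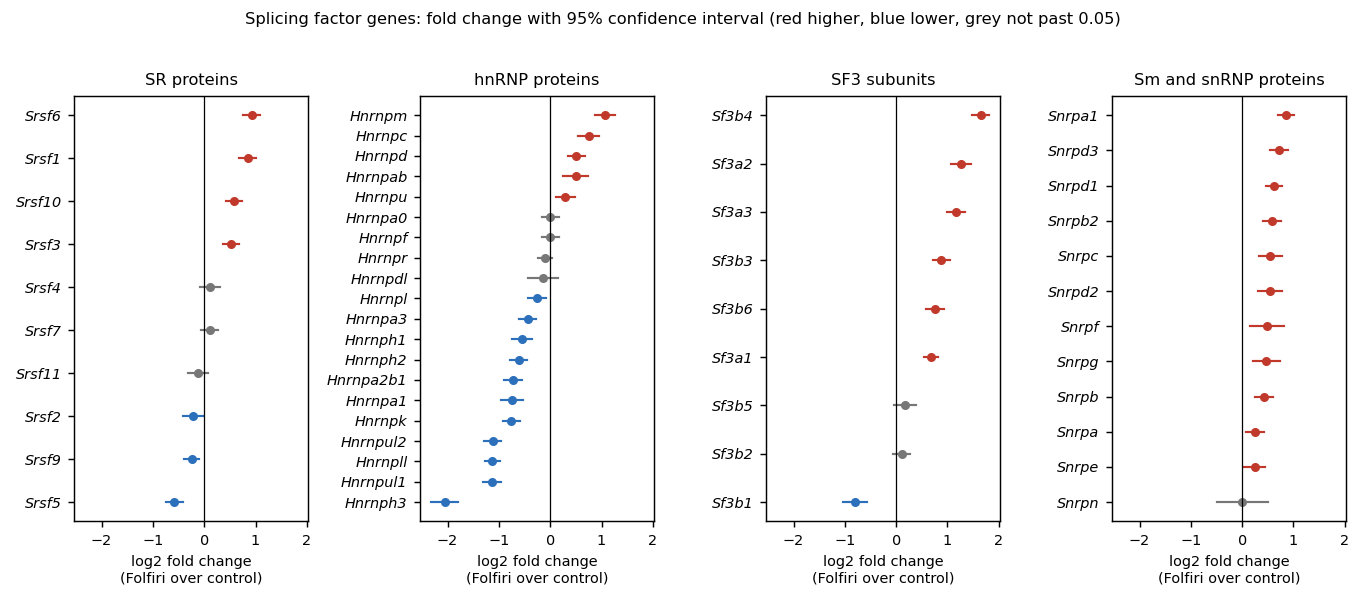
Log2 fold change, Folfiri over control, of the 51 tested splicing factor genes in 4 panels by class, with points for the edgeR estimate and lines for its 95% confidence interval. Sm and snRNP genes lie at or right of 0, hnRNP genes run from 1.08 down to −2.06, and the near-zero genes Srsf2, Srsf9, Srsf11, Hnrnpl, Hnrnpr and Hnrnpdl lie left of 0 here but right of it when library totals alone set the scale.

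Parts of the promoters are shown first, because the classes also differed in the letters found there. RefSeq windows on GRCm38.p6 were at hand for 46 of the 52 genes, and 8 exact motifs were searched on both strands in the 250 bases before the start site. The ETS core (CCGGAA, read as TTCCGG on the other strand), the centre of sites for ETS family activators, was in 6 of 7 SF3 windows, 6 of 11 SR windows, 5 of 10 Sm and snRNP windows and 5 of 18 hnRNP windows. Together that made 22 of 46 windows (47.8%), against 22.4% of the 10473 windows of tested genes and 12.2% of all 27025 windows. The CCAAT box (CCAAT or ATTGG), a site of NF-Y, was in 12 of 18 hnRNP windows and in 9 of the other 28, against 37.0% of the windows of tested genes. A match is a stretch of letters and not a bound site.

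The following stretches hold the ETS match nearest the start site in each SF3 and Sm or snRNP gene that has one, 5′ to 3′ on the gene's strand. The match is in capitals with up to 12 bases on each side. The windows start from RefSeq, and in 8 of the 11 genes GENCODE annotates an exon of the same gene over the whole match, so in these the match lies inside a transcript with an earlier start. In Sf3a1 such an exon covers 3 of the 6 bases of the match.
Sf3a1, chr11:4160335-4160353, plus strand: gagagggcgggaCCGGAAg
Sf3a2, chr10:80798647-80798676, plus strand: acgcctttgctcCCGGAAgggatcgcttcg
Sf3a3, chr4:124714835-124714860, plus strand: ggcaggcggtgtTTCCGGcagtgtta
Sf3b2, chr19:5295458-5295480, minus strand: tggattacgcaaCCGGAAgtttc
Sf3b3, chr8:110847014-110847043, minus strand: cccggtgggcgcTTCCGGgcttgcgaggtc
Sf3b6, chr12:4817557-4817586, plus strand: tgctagttcgctTTCCGGcttgagaatgcg
Snrpb2, chr2:143063049-143063068, plus strand: gcggggaagctcTTCCGGta
Snrpc, chr17:27840036-27840065, plus strand: gtagggcagaggCCGGAAgcggaagtccta
Snrpd3, chr10:75517910-75517939, plus strand: ccctctccggtgCCGGAActattgtgctag
Snrpe, chr1:133610281-133610301, minus strand: ctgcacttccgtTTCCGGgtc
Snrpg, chr6:86371383-86371412, plus strand: ctggcgacgcaaCCGGAAgcgtggctctgg

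For the hnRNP genes the CCAAT match nearest the start site is shown for the 3 most abundant genes per length that have one, with the match in capitals.
Hnrnpa1, chr15:103240366-103240394, plus strand: gggcggagtctaCCAATaccgagagcgag
Hnrnpa2b1, chr6:51469929-51469957, minus strand: gcccttcccgccATTGGcggcggttaggg
Hnrnpa3, chr2:75659124-75659152, plus strand: cccgccggcggcCCAATccccgctctcca

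Set against the fold changes, 14 of the 22 tested members with an ETS core were higher after Folfiri and 3 were lower, with a median log2 fold change of 0.48. Of the 23 tested members with a window but no ETS core, 9 were higher and 10 lower, with a median of −0.10. Over all tested genes with a window, 47.7% of those with the ETS core were higher and 31.4% lower, against 41.3% and 38.0% of those without, and the medians were 0.19 and 0.04. Members with a CCAAT box were higher in 8 and lower in 9 of 21 cases, and those without in 15 and 4 of 24 (38.1% and 42.9% against 62.5% and 16.7%). Over all tested genes with a window, 41.1% of those with the CCAAT box were higher and 38.3% lower, against 43.7% and 35.5% of those without, so the members with the box were near the share of all genes. Since the motif shares differ by class, these counts repeat the class pattern in part. The GC box (GGGCGG), a site of SP1, was in 32 of 46 windows (69.6%), against 58.7% of the windows of tested genes. The E-box (CACGTG), bound by MYC, was in 3 windows (6.52%, against 8.22%), the TATA box (TATAAA) in 5 (10.9%, against 6.81%), the cAMP response element (TGACGTCA) in 2, and the NRF1 (GCATGCGC) and YY1 (AAGATGGC) cores in 1 each.

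**Figure D2:**
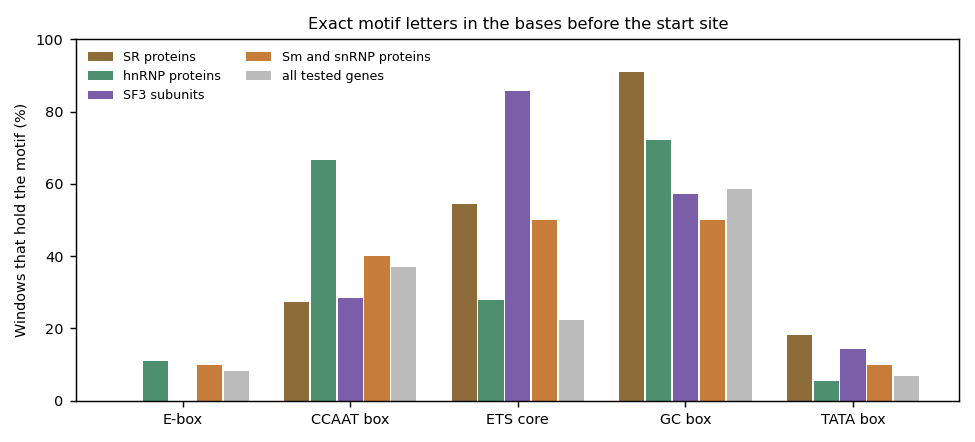
Percent of promoter windows that hold each of 5 motifs, in bars for the 4 classes and, in grey, for all 10473 windows of tested genes. The ETS core stands highest in the SF3 bar (6 of 7 windows) and the CCAAT box in the hnRNP bar (12 of 18).

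SR proteins split into 4 genes that rose, 3 that fell and 3 that did not pass the test. The share that rose (40%) was near the 40.3% of all tested genes, and the share that fell (30%) was below their 38.8%. Srsf6 (ENSMUSG00000016921, chr2:162931528-162937121, plus strand), an activator of weak exons once known as SRp55, had 116, 103 and 104 CPM in the control samples and 200.03, 205 and 207 CPM in the Folfiri samples. All Folfiri values lay above all control values, and the gene rose 1.90-fold (log2 fold change 0.92, SE 0.07, adjusted p = 8.1e-07). Srsf1 (ENSMUSG00000018379, chr11:88047373-88053755, plus strand), the founding SR protein, which also serves in mRNA export and translation, had 215, 207 and 226 CPM in the control samples and 387, 401 and 375 CPM in the Folfiri samples. Its groups were likewise apart, with a 1.80-fold rise (log2 fold change 0.85, SE 0.07, adjusted p = 1.4e-06). Srsf10, which represses splicing in its dephosphorylated form, had 111, 109 and 121 CPM in the control samples and 167, 174 and 169.6 CPM in the Folfiri samples, again without overlap (log2 fold change 0.58, SE 0.07, adjusted p = 1.8e-05). Srsf3, the smallest SR protein and an export adaptor, had 232, 222 and 236 CPM in the control samples and 321, 328 and 347 CPM in the Folfiri samples. It also rose with separate groups (log2 fold change 0.53, SE 0.07, adjusted p = 4.2e-05), although near-identical copies elsewhere in the genome carried counts equal to 29.7% of its own, and adding these gave 0.57.

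The SR genes that fell included the most abundant of the class per length. Srsf5 (ENSMUSG00000021134, chr12:80945504-80950507, plus strand), formerly SRp40, had 371, 398 and 423 CPM in the control samples and 269.8, 255 and 271 CPM in the Folfiri samples, so that the control samples were all higher (log2 fold change −0.58, SE 0.08, adjusted p = 4.0e-05). Per length it stood at 99.6 ± 6.53 CPM per kb of exon in control and 66.6 ± 2.21 after Folfiri, the highest control level of any SR gene on that scale. Srsf9 had 133, 145 and 140.0 CPM in the control samples and 116, 118 and 119.9 CPM in the Folfiri samples, a small fall of separate groups (log2 fold change −0.24, SE 0.07, adjusted p = 0.0059). Srsf2, also called SC35, which stays in the nucleus and defines speckles, had 179, 219.7 and 226 CPM in the control samples and 178, 179 and 179 CPM in the Folfiri samples. The lowest control value exceeded the highest Folfiri value by less than the spread among controls (log2 fold change −0.22, SE 0.09, adjusted p = 0.041), and the call was lost in all but 1 of the fits that left out a sample. Both Srsf9 and Srsf2 were slightly above 0 on the scale of library totals (0.035 and 0.060, neither called). Exons of other genes overlap 25.3% of the Srsf2 exon length, and whether counting used strand is not stated.

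Srsf4 (log2 fold change 0.11), Srsf7 (0.10), an export adaptor like Srsf3, and Srsf11 (−0.11) did not pass the test. Their 95% confidence intervals ran from −0.08 to 0.30, from −0.05 to 0.26 and from −0.31 to 0.08 on the TMM scale. On the scale of library totals all 3 were called higher, at 0.39, 0.38 and 0.17. Exons of other genes overlap 43.0% of the Srsf4 exon length. Srsf11 passed as lower without control replicate 1 (−0.20, adjusted p = 0.0073). Summed over the 10 tested genes, SR RNA was 1726 ± 81.5 CPM in control against 1966 ± 27.0 CPM in the treated samples (SD, n = 3 each), or 1.14 times as much.

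**Figure D3:**
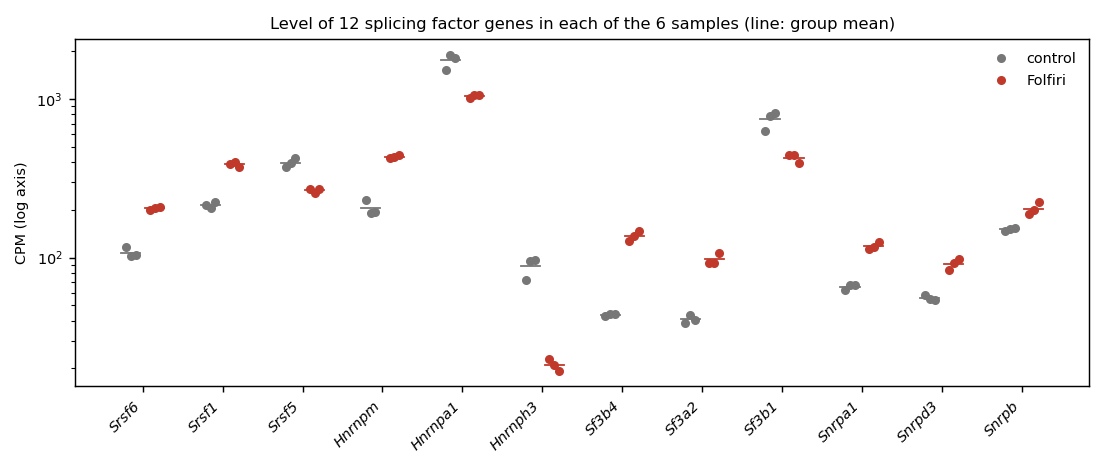
Level in CPM, on a log axis, of 12 splicing factor genes in each of the 3 control (grey) and 3 Folfiri (red) samples, with a line at each group mean. Srsf5, Hnrnpa1, Hnrnph3 and Sf3b1 were lower after Folfiri and the other 8 higher. The groups are apart for all 12 genes, which is no further result, since most were chosen for a called change and separate groups.

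The hnRNP genes formed the largest class and carried most of the members' reads, and 11 of 20 fell. Hnrnph3 (ENSMUSG00000020069, chr10:63014664-63024217, minus strand), the shortest member of the H and F family that binds runs of G, showed the deepest fall of all members. It had 72.2, 95.8 and 96.2 CPM in the control samples and 23.0, 21.1 and 19.4 CPM in the Folfiri samples and so fell to 0.240 of its control level, with the groups far apart (log2 fold change −2.06, SE 0.12, adjusted p = 1.1e-07). Hnrnpul1 (ENSMUSG00000040725, chr7:25721165-25754757, minus strand) and its relative Hnrnpul2, both linked to the response to DNA breaks, fell by similar factors. Hnrnpul1 had 283, 317 and 299 CPM in the control samples and 142, 144 and 124 CPM in the Folfiri samples (log2 fold change −1.13, SE 0.08, adjusted p = 4.5e-07). Hnrnpul2 had 449.9, 492 and 494 CPM in the control samples and 227, 219.9 and 213 CPM in the Folfiri samples (log2 fold change −1.12, SE 0.07, adjusted p = 2.6e-07). In both genes every Folfiri sample was below every control sample by a wide gap. Hnrnpll, known for exon choice in the CD45 gene of lymphocytes, had 134, 143 and 147 CPM in the control samples and 64.3, 64.9 and 64.4 CPM in the Folfiri samples, a fall of the same size (log2 fold change −1.13, SE 0.07, adjusted p = 1.3e-07).

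The genes with the most reads of the class fell less far. Hnrnpa1 (ENSMUSG00000046434, chr15:103240432-103246692, plus strand), which favors distal splice sites and opposes Srsf1 there, was the most abundant member per length, at 555 ± 60.1 CPM per kb of exon in control and 331 ± 9.38 after Folfiri. It had 1536, 1891 and 1827 CPM in the control samples and 1011, 1057 and 1067 CPM in the Folfiri samples and fell to 0.597 of its control level (log2 fold change −0.74, SE 0.10, adjusted p = 4.6e-05). The close relative Hnrnpa2b1 was at 1275 ± 23.6 CPM in control and 774 ± 19.3 CPM after Folfiri (SD, n = 3 each), with a log2 fold change of −0.72. Hnrnpk, which binds runs of C, was at 733 ± 21.7 CPM in control and 434 ± 5.84 CPM after Folfiri (SD, n = 3 each), with a log2 fold change of −0.76. These 3 genes thus fell by close to the same factor, and their groups were apart. Hnrnph2 (−0.61), Hnrnph1 (−0.55) and Hnrnpa3 (−0.44) fell less, and Hnrnpl (−0.26), which binds CA repeats, least. Copies of Hnrnpa3 elsewhere in the genome carried counts equal to 15.5% of its own, and adding them gave −0.52. On the scale of library totals Hnrnpl turned to 0.024 and was not called. Of the H and F family, then, 3 genes fell and Hnrnpf did not pass the test.

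Some hnRNP genes rose against the trend of the class. Hnrnpm (ENSMUSG00000059208, chr17:33646233-33686860, minus strand) had 232, 191 and 193 CPM in the control samples and 422, 434 and 445 CPM in the Folfiri samples and rose 2.11-fold (log2 fold change 1.08, SE 0.09, adjusted p = 1.2e-06). Hnrnpc, which binds U tracts and keeps cryptic exons out, had 377, 464 and 453 CPM in the control samples and 709.8, 719 and 753 CPM in the Folfiri samples (log2 fold change 0.75, SE 0.09, adjusted p = 2.5e-05). Hnrnpd, also called AUF1, a binder of AU-rich elements in mRNA decay, had 193, 211 and 226 CPM in the control samples and 299, 299 and 297 CPM in the Folfiri samples (log2 fold change 0.51, SE 0.08, adjusted p = 1.1e-04). All 3 had separate groups. Hnrnpab had 428, 338 and 319.8 CPM in the control samples and 499, 503 and 529 CPM in the Folfiri samples (log2 fold change 0.50, SE 0.11, adjusted p = 0.0014), with control replicate 1 above the other controls but below every Folfiri sample. Hnrnpu, a nuclear scaffold protein, rose least (0.29). Exons of other genes overlap 29.1% of the Hnrnpab exon length, 14.7% of that of Hnrnpm, 6.93% for Hnrnpu and 5.24% for Hnrnpd. Of the hnRNP genes that rose, Hnrnpc alone has no such overlap.

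Hnrnpa0 (0.005), Hnrnpf (0.002), Hnrnpr (−0.10) and Hnrnpdl (−0.14) did not pass the test. Hnrnpa0 and Hnrnpf had nearly equal means in the 2 groups, 277 and 278 CPM for the first and 428 and 428 CPM for the second. Copies of Hnrnpf elsewhere in the genome carried counts equal to 78.4% of its own, and adding them gave a log2 fold change of 0.01. Hnrnpdl passed as lower without control replicate 1 (−0.29, adjusted p = 0.00045), the sample that stood lowest among the controls at 346 CPM against 482 and 515 CPM. With library totals as the scale, Hnrnpr reversed to 0.17 and was called higher (adjusted p = 0.040), as were Hnrnpa0 (0.28) and Hnrnpf (0.28), and Hnrnpdl turned to 0.15 without a call (adjusted p = 0.22). Exons of other genes overlap 26.5% of the Hnrnpf exon length.

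The SF3 subunits, which belong to U2 snRNP, included the 3 steepest rises among the 51 tested members. Sf3b4 (ENSMUSG00000068856, chr3:96172332-96177564, plus strand), which contacts the pre-mRNA upstream of the branch site, had 42.7, 44.4 and 44.1 CPM in the control samples and 127, 137 and 147 CPM in the Folfiri samples. It rose 3.13-fold with separate groups (log2 fold change 1.65, SE 0.08, adjusted p = 2.3e-08). A copy, Gm7935, carried 1735 reads over the control and 6968 over the Folfiri samples, 54.3% of the member's own, and adding them gave 1.64. Sf3a2 (ENSMUSG00000020211, chr10:80798198-80804924, plus strand) had 38.7, 43.7 and 40.2 CPM in the control samples and 92.8, 93.1 and 108 CPM in the Folfiri samples and rose 2.39-fold (log2 fold change 1.26, SE 0.09, adjusted p = 3.2e-07), with exons of other genes over 16.1% of its exon length. Sf3a3 had 40.4, 38.2 and 36.0 CPM in the control samples and 81.4, 85.2 and 91.4 CPM in the Folfiri samples and rose 2.25-fold (log2 fold change 1.17, SE 0.08, adjusted p = 3.0e-07). With Sf3a1, at 89.9 ± 0.865 CPM in control and 145 ± 2.47 CPM after Folfiri (SD, n = 3 each) and a log2 fold change of 0.69, all subunits of the SF3a trimer rose. Sf3b3, a large scaffold subunit of SF3b, had 226, 208 and 204 CPM in the control samples and 369, 396 and 411 CPM in the Folfiri samples (log2 fold change 0.88, SE 0.08, adjusted p = 1.8e-06). Sf3b6, the small subunit that lies at the branch site adenosine, was at 36.4 ± 1.92 CPM in control and 61.6 ± 3.27 CPM after Folfiri (SD, n = 3 each), with a log2 fold change of 0.76.

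Sf3b1 was the exception. It is the largest SF3b subunit, the one that holds the branch helix and the target of splicing inhibitors such as pladienolide. Sf3b1 (ENSMUSG00000025982, chr1:54985169-55027481, minus strand) had 631, 784 and 819 CPM in the control samples and 442, 445 and 396 CPM in the Folfiri samples, and all Folfiri values were below the lowest control value (log2 fold change −0.80, SE 0.11, adjusted p = 4.3e-05). It was the most abundant SF3 gene per length, at 65.5 ± 8.80 CPM per kb of exon in control and 37.6 ± 2.43 after Folfiri. After Folfiri it was below Sf3b4 on that scale, which stood at 20.2 ± 0.418 CPM per kb of exon in control and 63.4 ± 4.49 after Folfiri. Sf3b2 (0.11, 95% confidence interval −0.06 to 0.27) and Sf3b5 (0.17, −0.04 to 0.38) did not pass the test, and both were called higher on the scale of library totals (0.39 and 0.44). The SF3b subunits thus ranged over 2.45 log2 units, more than the genes of the SR and Sm classes.

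The Sm and snRNP genes spanned the narrowest range of the 4 classes, 0.85 log2 units. Of the 2 genes for proteins found only in U2 snRNP, Snrpa1 (ENSMUSG00000030512, chr7:66059003-66074587, plus strand) had 62.2, 67.1 and 67.1 CPM in the control samples and 113, 117 and 125 CPM in the Folfiri samples (log2 fold change 0.85, SE 0.07, adjusted p = 1.3e-06). The other, Snrpb2, had 51.9, 60.2 and 56.5 CPM in the control samples and 80.0, 84.6 and 87.2 CPM in the Folfiri samples (log2 fold change 0.58, SE 0.08, adjusted p = 5.0e-05). Both rose with separate groups. Of the U1 proteins, Snrpc rose with a log2 fold change of 0.55 and Snrpa with 0.26. Among the Sm ring genes, Snrpd3 (ENSMUSG00000020180, chr10:75517551-75537381, plus strand) had 57.7, 54.7 and 54.0 CPM in the control samples and 83.1, 92.1 and 98.5 CPM in the Folfiri samples (log2 fold change 0.72, SE 0.08, adjusted p = 1.2e-05). Snrpd1 had 60.4, 64.4 and 63.8 CPM in the control samples and 94.1, 93.9 and 101 CPM in the Folfiri samples (log2 fold change 0.62, SE 0.07, adjusted p = 1.3e-05). Snrpb, the most abundant of the class per length at 76.5 ± 1.87 CPM per kb of exon in control and 103 ± 9.05 after Folfiri, had 147, 152 and 154 CPM in the control samples and 188, 198 and 223 CPM in the Folfiri samples (log2 fold change 0.43, SE 0.08, adjusted p = 4.6e-04). Again no control sample reached a Folfiri sample in these genes.

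The other ring genes were Snrpd2 (0.54), Snrpf (0.49), Snrpg (0.47) and Snrpe (0.24), so that all 7 genes of the common ring passed the test. Snrpe did so narrowly (adjusted p = 0.034), and its call was lost when any 1 of the control samples was left out (adjusted p = 0.052 to 0.058) and with DESeq2's Wald test (0.051). In the Folfiri group, replicate 3 was the highest sample for Snrpd2, Snrpg and Snrpe, at 131, 109 and 82.7 CPM against at most 102, 82.5 and 67.7 CPM in the other two. Without it Snrpe was at 0.14 (adjusted p = 0.13) and Snrpf at 0.39 (adjusted p = 0.058), neither called, and the class median was 0.40. Exons of other genes overlap 85.4% of the Snrpf exon length and 44.1% of that of Snrpn. Snrpn, an imprinted gene that replaces Snrpb in neurons, was close to silent at 1.41 ± 0.289 CPM in control and 1.39 ± 0.254 CPM after Folfiri (SD, n = 3 each), with a 95% confidence interval of −0.49 to 0.50 for its log2 fold change.

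Sums over each class add CPM, not levels per length. The hnRNP genes together had 9199, 9768 and 9824 CPM in the control samples and 7832, 7932 and 7866 CPM in the Folfiri samples, a ratio of 0.821. The Sm and snRNP genes had 702, 766 and 757 CPM in control and 987, 1028 and 1172 CPM after Folfiri, a ratio of 1.43. The groups were apart in both. SF3 genes were at 1612 ± 103 CPM and 1785 ± 32.8 CPM (SD, n = 3 each), a ratio of 1.11. With total counts as the scale the hnRNP sum did not differ in this way, at 8711 ± 146 CPM in control and 8665 ± 51.5 CPM after Folfiri with overlapping groups, while the ratios were 1.38 for SR, 1.34 for SF3 and 1.74 for Sm and snRNP genes.

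Ratios between classes do not depend on that scale. Sm and snRNP RNA was 7.63%, 7.85% and 7.71% of the hnRNP sum in the control samples and 12.6%, 13.0% and 14.9% in the Folfiri samples. SR RNA went from 18.0% ± 0.383 to 25.0% ± 0.271 of the hnRNP sum and SF3 RNA from 16.8% ± 0.485 to 22.7% ± 0.340 (SD, n = 3 each). In each of these ratios the groups were apart. The hnRNP share of the RNA of all 4 classes accordingly went from 70.2% ± 0.336 to 62.1% ± 0.696. Within the hnRNP sum, Hnrnpa1 and Hnrnpa2b1 together took 31.5% ± 0.856 in control and 23.1% ± 0.0928 after Folfiri. The count ratio of Srsf1 to its antagonist Hnrnpa1, a pair picked after the values were seen, was 0.140, 0.109 and 0.123 in control and 0.382, 0.379 and 0.351 after Folfiri.

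**Figure D4:**
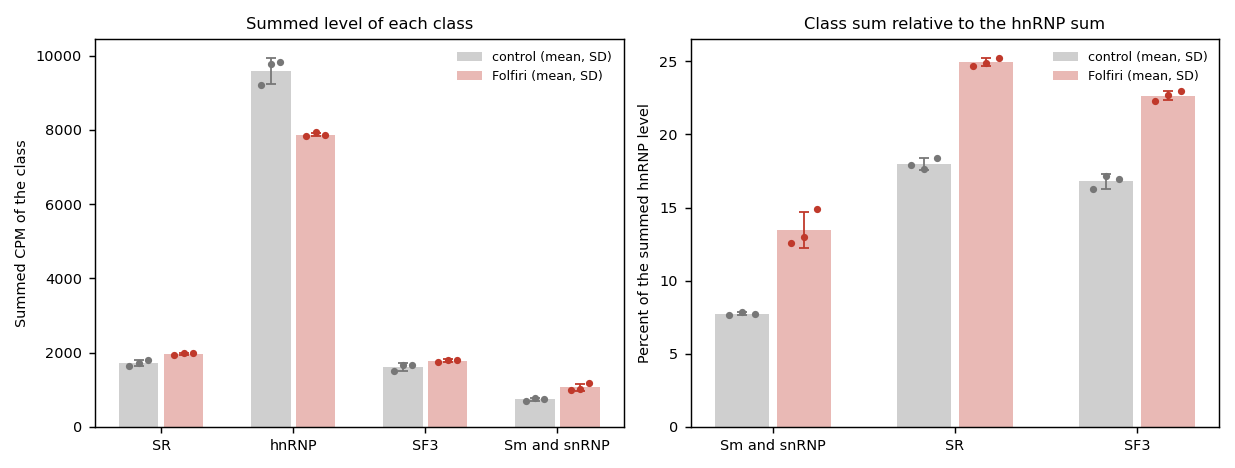
Left, summed CPM of each class, and right, the summed level of 3 classes as a percent of the hnRNP sum, with bars for the mean of 3 control (grey) or 3 Folfiri (red) samples, error bars for the SD and points for samples. The hnRNP sum is lower and the other sums higher after Folfiri on the TMM scale, and all 3 ratios to the hnRNP sum are higher with no overlap of samples.

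The classes also differed in their annotation. GENCODE annotates a transcript subject to nonsense-mediated decay, the surveillance route by which many SR and hnRNP proteins limit their own RNA, for 9 of 11 SR, 10 of 20 hnRNP, 1 of 9 SF3 and 4 of 12 Sm and snRNP genes. Among tested protein-coding genes 27.8% have one. The 24 tested members with such a transcript had a median log2 fold change of −0.11 and the 27 without one of 0.54, whereas all tested protein-coding genes had medians of 0.06 and 0.06. The annotation follows the classes in part. Within the hnRNP class the 10 genes with such a transcript had a median of −0.49 and the 10 without one of −0.22, with 6 and 5 lower. Among Sm and snRNP genes the medians were 0.34 for 4 genes and 0.55 for 8. Sf3b1, the SF3 gene with a decay transcript, was at −0.80, against a median of 0.82 over the other 8, and a single tested SR gene, Srsf10, had none. These are descriptions with no test, and counts per gene do not separate transcripts. Over the 51 genes, Spearman's rho between genomic span and log2 fold change was 0.01, and between mean level and log2 fold change −0.36, against −0.16 over all tested genes. The genes share libraries and depth, so these are descriptions. The members lie on 18 chromosomes and span 2.68 to 158 kb, with a median of 10.4 kb.

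The kinases of SR proteins moved in both directions, with 4 higher and 4 lower of 9 tested (44.4% each), near the 40.3% and 38.8% of all genes. Top1 itself, the target of SN38, had 151, 148 and 151 CPM in the control samples and 201, 199 and 168 CPM in the Folfiri samples (log2 fold change 0.34, SE 0.08, adjusted p = 0.0028). Srpk1, which phosphorylates SR proteins in the cytoplasm for import, had 66.8, 63.2 and 60.1 CPM in the control samples and 124, 129 and 120.5 CPM in the Folfiri samples (log2 fold change 0.97, SE 0.07, adjusted p = 4.9e-07). Its paralog Srpk2 had 83.9, 90.3 and 95.3 CPM in the control samples and 46.5, 46.5 and 41.5 CPM in the Folfiri samples (log2 fold change −1.002, SE 0.08, adjusted p = 1.0e-06). The paralogs thus moved in opposite directions, and the count ratio of Srpk1 to Srpk2 went from 0.709 ± 0.0828 to 2.78 ± 0.119 (SD, n = 3 each), a pair picked after its values were seen. Of the nuclear CLK kinases, Clk3 had 236, 339 and 344 CPM in the control samples and 39.0, 38.0 and 38.4 CPM in the Folfiri samples, a fall to 0.126 of control with no overlap (log2 fold change −2.99, SE 0.14, adjusted p = 2.1e-08). Clk1 was at 132 ± 23.5 CPM in control and 91.8 ± 4.46 CPM after Folfiri (SD, n = 3 each) and fell, with a log2 fold change of −0.52, and Clk2 was at 26.6 ± 2.85 CPM in control and 51.1 ± 3.63 CPM after Folfiri (SD, n = 3 each) and rose, with 0.94. Clk4 did not pass the test (−0.13). Exons of other genes overlap those of Srpk2, Clk3 and Clk4. Srpk3 was not tested. The counts of 4 and 4 were the same on the scale of library totals.

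The other 10 lists of splicing genes, 150 genes drawn up from knowledge of the pathway, were all tested. Over the 11 lists together, 96 of 159 tested genes rose and 36 fell (60.4% and 22.6%, against 40.3% and 38.8% of all genes), with a median log2 fold change of 0.39, and a called change of at least 1 was seen in 14.5%, against the 36.3% of all genes. On the scale of library totals 111 were higher and 22 lower (69.8% and 13.8%), against 49.8% and 28.9% of all genes on that scale. Factors that build or run the snRNPs rose in most cases. Of 14 snRNP assembly factors, 12 rose and 1 fell, with a median of 0.89. Smn1, the protein of the SMN complex that loads Sm rings, had 20.1, 15.5 and 15.5 CPM in the control samples and 59.5, 62.2 and 69.6 CPM in the Folfiri samples (log2 fold change 1.90, SE 0.11, adjusted p = 1.3e-07). Wdr77, part of the methylosome that modifies Sm proteins, had 14.1, 9.52 and 8.43 CPM in the control samples and 45.2, 47.3 and 48.5 CPM in the Folfiri samples (log2 fold change 2.12, SE 0.16, adjusted p = 4.9e-07). Snupn, which carries snRNPs back into the nucleus, fell (−0.49). On the scale of library totals Snupn was at −0.21 and not called (edgeR adjusted p = 0.062), and 13 of the 14 were higher and 0 lower. RNA of most Sm genes and of most of their assembly factors was thus higher in the same samples.

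Of 22 Prp19 complex and catalytic-step factors, 19 rose and 1 fell (86.4% and 4.55%, against 40.3% and 38.8% of all genes), with a median of 0.54. Prpf19, a ubiquitin ligase of the active spliceosome, was at 80.0 ± 9.59 CPM in control and 234 ± 7.72 CPM after Folfiri (SD, n = 3 each), with a log2 fold change of 1.55, Crnkl1 had 0.97, and Cdc5l was the gene that fell (−0.31). On the scale of library totals Cdc5l was at −0.033 and not called. There 21 of the 22 were higher and 0 lower (95.5% and 0%, against 49.8% and 28.9% of all genes). All 5 exon junction complex genes rose (median 1.03), led by Magoh (1.12) and its near copy Magohb (1.11), which may share reads. Of 16 U1- and U2-associated genes, 11 rose and 3 fell (68.8% and 18.8%, median 0.52). The helicase Ddx46, which remodels U2 snRNP, had 1.67 and Rbm17 0.99, and the U1 gene Snrnp70 (−0.24) was among those that fell, although on the scale of library totals it was at 0.042 and none of the 16 genes was called lower. The tri-snRNP list had 11 higher and 2 lower of 15 (73.3% and 13.3%, median 0.47), with Usp39 at 0.84, Prpf31 at 0.82, Snrnp27 at −0.59 and Txnl4a at −0.59.

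In both lists of regulators the TMM scale gave shares not far from those of all genes, of which 40.3% rose and 38.8% fell. Among 20 SR-related proteins 9 rose and 7 fell (45% and 35%, median 0.07), or 11 and 4 on the scale of library totals (55% and 20%, median 0.34), with the speckle protein Son at 1.48, Scaf4 at 0.95, Rsrc1 at −2.02 and Luc7l2 at −0.82. Of 30 other splicing regulators 10 rose and 10 fell (33.3% each, median −0.05). Sfpq, a paraspeckle protein, was at 105 ± 20.9 CPM in control and 197 ± 2.00 CPM after Folfiri (SD, n = 3 each), with a log2 fold change of 0.91, and Khdrbs1 had 0.75. Mbnl2 was at 198 ± 21.2 CPM in control and 65.6 ± 5.34 CPM after Folfiri (SD, n = 3 each), with −1.59, and the cold-induced Cirbp had −1.39. The median of this list was close to that of all genes, and on the scale of library totals 15 were higher and 7 lower (50% and 23.3%), near the 49.8% and 28.9% of all genes there.

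The smaller particle lists held genes far from their neighbors. Of 10 LSm genes, most of which ring U6 or act in mRNA decay, 7 rose and 3 fell (70% and 30%, median 0.41). Lsm7 was at 13.4 ± 1.13 CPM in control and 45.2 ± 4.32 CPM after Folfiri (SD, n = 3 each), with a log2 fold change of 1.75, and Lsm2 had 0.88. Lsm4 was at 181 ± 14.7 CPM in control and 91.0 ± 9.93 CPM after Folfiri (SD, n = 3 each), with −0.99. The others that fell were Lsm10 (−0.68) and Lsm11 (−0.67), both of the histone U7 particle. Of 8 minor spliceosome genes 4 rose and 3 fell (50% and 37.5%, median 0.41), near the 40.3% and 38.8% of all genes, or 5 and 1 on the scale of library totals (62.5% and 12.5%, against 49.8% and 28.9%), with Rnpc3 at 1.03, Zmat5 at 0.82, Snrnp25 at −1.59 and Snrnp48 at −0.36. Of 10 decay factors 4 rose and 2 fell (40% and 20%, median 0.05), or 5 and 1 on that scale (50% and 10%), with Smg5 at 1.18, Smg8 at 0.97, Smg6 at −1.08 and Upf2 at −0.40. The share of decay factors that was higher was near that of all genes on both scales. With library totals as the scale, Snrnp48 was at −0.080 and Upf2 at −0.12, neither called. Among the genes named from these lists, exons of other genes overlap those of Son, Rsrc1, Luc7l2, Prpf31, Txnl4a, Rnpc3, Zmat5, Crnkl1, Cdc5l, Wdr77, Magohb, Mbnl2, Sfpq and Smg6, so part of their reads may belong to a neighbor.

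**Figure D5:**
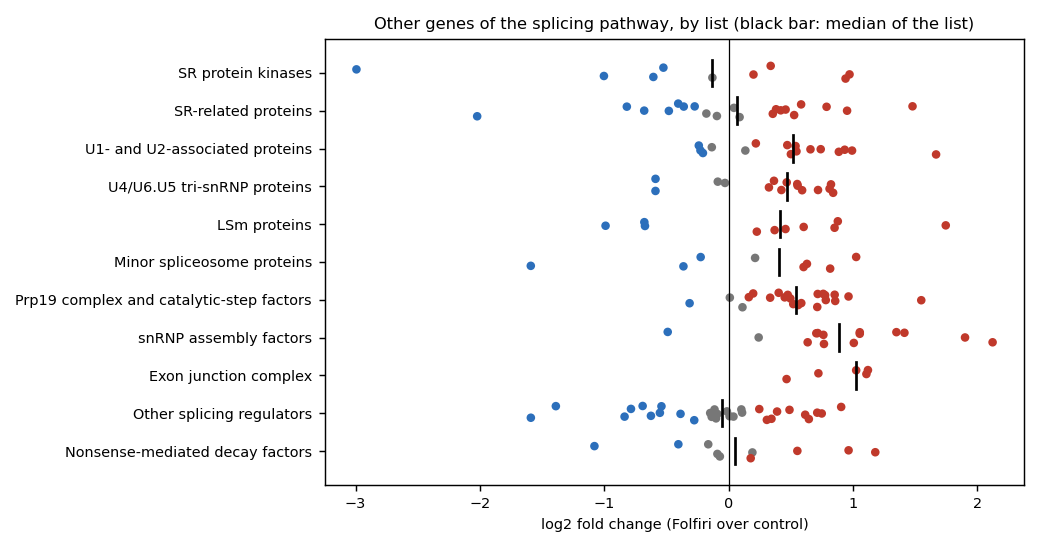
Log2 fold change, Folfiri over control, of the 159 tested genes of 11 splicing lists, with a point per gene (red higher, blue lower, grey not past an adjusted p of 0.05) and a black bar at each median. The snRNP assembly and exon junction lists lie furthest right (medians 0.89 and 1.03), and Clk3, at −2.99, is the point furthest left.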

How the data were processed

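RNA of 3 control and 3 Folfiri cultures was sequenced after poly(A) selection. The authors aligned the reads with STAR (2.5.2, per the labels) to the mouse genome, used Rsubread to count them per gene and deposited these raw counts, not normalized. The strand setting and the treatment of reads with several positions are not given in the sources used here, so overlapping genes and near-identical copies are uncertain. Replicates are separate samples by their labels, and intervals cover the spread between them only.

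Genes were matched by Ensembl identifier to GENCODE vM21, on the same build as the authors' annotation (GRCm38). Starting from the counts, edgeR 4.0.16 in R 4.3.3 was run on all genes with its default expression filter, TMM normalization, the quasi-likelihood test with group as the only term, and Benjamini-Hochberg adjustment over 14692 genes at 0.05. The procedure was tested on simulated data. Levels are CPM from TMM-scaled library sizes, and levels per kb divide by the annotated exon length. Copies were annotated transcripts with at least 98% identity over at least 100 bases and 50% of either transcript. Promoter windows came from RefSeq (GRCm38.p6), the first listed for each gene.

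The members and lists were chosen with earlier results of these data known. Values in every sample were given for up to 4 members per direction and class with the largest called change and separate groups, and for the most abundant member per length. All members that did not pass were named, and up to 2 genes per direction in each pathway list, with Top1, Srpk1, Srpk2 and Clk1 to Clk4 always. Lsm11 was named in addition. One gene that the rule selects is left out of the text. Motifs, stretches of promoter and ratios of gene pairs were chosen after values were seen. Alternatives were 3 other scalings (DESeq2 size factors, upper quartile, total counts only), 2 other filters, DESeq2's Wald test (1.42.0), a block for the replicate number, leaving out each replicate, and members without exon overlap. Adding the counts of copies was chosen after seeing the data.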

Additional observations from a re-analysis of the deposited data

How the results depend on the processing

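Over 13 alternatives, 619 of 663 values for single members kept their sign and side of the threshold, 17 lost the call, 11 gained one, and 16 changed sign without a call in either fit, 15 of them for Hnrnpa0, Hnrnpf and Snrpn near 0. No member was called in opposite directions. In every fit 24 members were called higher and 12 lower. With total counts only, the values that reversed with a call in one of the fits were 0.17 for Srsf11, 0.060 for Srsf2, 0.035 for Srsf9, 0.024 for Hnrnpl and 0.17 for Hnrnpr, and the medians were 0.52 over all members, 0.38 for SR, −0.071 for hnRNP, 1.03 for SF3 and 0.79 for Sm and snRNP genes. Between the TMM scale and that scale the median of all tested genes also moved, from 0.02 to 0.30. Which scale is closer to the RNA per cell was not tested. With upper quartile factors the median over all members was 0.30, Srsf2 lost its call and Sf3b2 gained one. Snrpe lost its call with DESeq2's Wald test and 4 fits without a sample, Snrpf in 1 and Hnrnpl in 2 such fits. Members without exon overlap gave 14 higher and 9 lower of 29, fewer because fewer genes were counted. Those 29 include Srsf12, which was not tested, and of the hnRNP genes that rose only Hnrnpc.

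Leaving out each sample in turn, the median ranged from 0.14 to 0.27 over all members and from 0.40 to 0.59 for Sm and snRNP genes, in both cases lowest without Folfiri replicate 3. All genes called ranged from 10630 to 12742 over the fits. With the replicate number as a block, 26 members were higher, 15 lower and 11499 genes called. The numbers did not pair the samples (correlations of same-numbered deviations 0.03, −0.12 and 0.04, and in 1 of 3 numbers the best match was the same number), and the block changed no call of a member. With counts of copies added, 26 and 15 members were called as before. At 22103591 reads or more, the interval was widest for Snrpn. Without an expression filter Srsf12 was also called, so 27 members and 5 SR genes were higher.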
